A study of Mus musculus with 2 samples.

Results

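Apelin, its receptor and 8 further genes of blood vessel signalling and identity were examined in mouse tibialis anterior, a leg muscle that lifts the foot. The genes are Apln, Aplnr, Pecam1, Cdh5, Kdr, Flt1, Tek, Tie1, Emcn and Vegfa, and their probes were found by the gene name in the scanner files. All 10 were present, among 24021 named genes on the array, with 14 probes and 25 spots. Apln was chosen by its strongly lower signal in the same contrast, so its difference and those of the other genes are given as descriptions. One RNA came from N2ICD-mTG muscle, in which activated Notch2 (N2ICD), the intracellular part of that receptor, is a transgene that the study's title places in muscle fibres. The other came from muscle of the genotype called control. Both were adult male C57BL/6 mice, with 1 array for N2ICD and 1 for control. The labels give neither the promoter that drives the transgene nor the number of animals behind each RNA, and they give no age in days or weeks.

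Apelin is a secreted peptide that acts on the apelin receptor, a G protein-coupled receptor of endothelial cells and of heart and other muscle. Endothelial cells at the tips of growing vessels make it, and muscle fibres also release it. Vessels grow towards vascular endothelial growth factor A (Vegfa), which muscle fibres supply, through its receptor Kdr, while Flt1 binds the same ligand tightly and holds it back. The Tie receptors Tek and Tie1 keep mature vessels stable under the angiopoietins, and Pecam1, Cdh5 and Emcn are surface proteins of the endothelial layer. In whole muscle RNA a lower transcript level can come from fewer cells of a type or from less RNA per cell, and the arrays cannot tell these apart.

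Of 59305 gene spots, 24982 were well above background with N2ICD RNA and 24916 with control RNA, and 0 were saturated. Differences are log2 N2ICD minus control after each array was scaled to its 75th percentile of signal. The typical gene then lay at 0.00, the median over 12507 genes measured on both arrays. With 1 array per group no test was possible, and the difference has no replicate check. Genotype, animal, dissection and array cannot be told apart, although both arrays lay on 1 slide. Between repeated spots of one probe the SD of the difference was 0.14 over 268 probes, 0.25 in the 67 dimmest and 0.05 in the 67 brightest. That is noise within an array and holds no spread between animals. Both arrays held the tissue's own markers: 12 of 12 muscle fibre genes and 19 of 20 further endothelial markers were well above background on each.

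All 10 genes were well above background on both arrays with at least 1 probe. Apln was 3.44-fold lower and Aplnr 2.24-fold lower in N2ICD muscle, and the other 8 lay within 2-fold. Thus 2 of 10 were at least 2-fold lower, where 0.919% of all measured genes were, and 0 were at least 2-fold higher, where 1.46% of all were (2.37% in either direction). At 1.5-fold, 3 of 10 were lower, with Emcn the third, and 0 higher, against 4.76% and 5.17% of all genes. Since Apln was picked for this difference, nothing is read from these counts. Emcn and Kdr came next at -0.59 and -0.52, followed by Tek at -0.34. Cdh5, Tie1, Vegfa, Pecam1 and Flt1 lay between -0.10 and 0.26. The 8 endothelial genes without Apln and Vegfa had a median of -0.22, with 6 below 0 and 2 above, while 49.5% of all measured genes were below 0. Without Aplnr the median of the other 7 was -0.10.

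**Figure D1:**
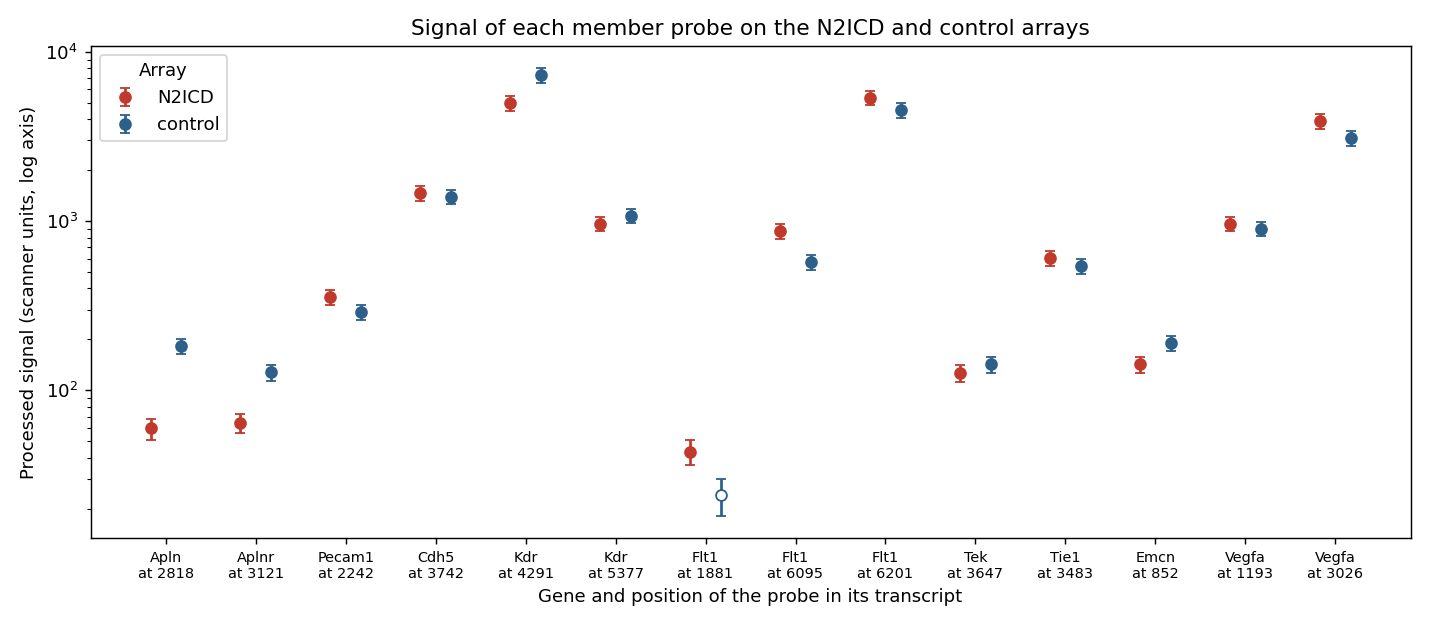
Processed signal (log axis) of each of the 14 probes on the N2ICD array (red) and the control array (blue), with the error that the scanner software gives for each spot, averaged over spots. The open circle was not well above background. The Apln and Aplnr points stand clearly apart, with N2ICD at 59.7 and 64.4 and control at 182 and 128.

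**Figure D2:**
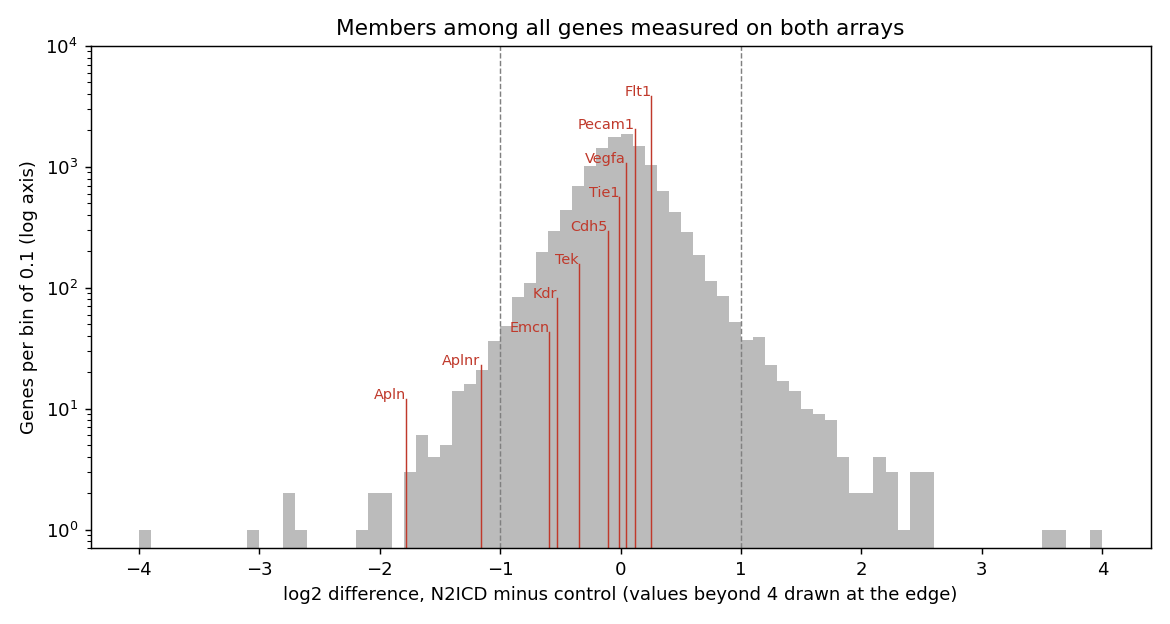
Distribution of the log2 difference over 12507 genes measured on both arrays, with the 10 genes as red lines whose height carries no meaning. Dashed lines mark 2-fold. Apln and Aplnr lie in the lower tail, and the other 8 lie inside the 2-fold lines.

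The apelin pair comprises the ligand Apln and its receptor Aplnr. Apln was read by 1 spot, with a signal of 59.7 in N2ICD muscle and 182 in control muscle. The scanner software gave these signals errors of 8.45 and 19.2, so the 2 signals do not overlap within their errors. The log2 difference was -1.78, with an error of 0.25 from the scanner's own estimates, and the spot noise at that level was an SD of 0.25. Apln was picked for this low value, and 10 of 12507 genes had a lower one. The probe lies on chromosome X, 45378593 to 45378652 (mm9, minus strand), at position 2818 of its transcript, and so well past the short apelin coding sequence near the 5′ end. The authors' deposited table gives an unsigned fold of 3.41 with the direction down.

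Aplnr was also read by 1 spot, with a signal of 64.4 in N2ICD muscle and 128 in control muscle. The scanner's errors were 8.59 and 13.9, and the signals again stand apart by more than these. The log2 difference was -1.16, with an error of 0.25, and 65 genes had a lower value. The probe lies on chromosome 2, 84979638 to 84979697 (mm9, plus strand), at position 3121 of the transcript. Both genes of the pair are dim, and normexp background correction, which adds 50 to each signal, gave -1.12 for Apln and -0.68 for Aplnr. The direction was the same, and Aplnr was then under 2-fold.

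Of 9 further genes of the apelin system, 6 were measured on both arrays and 0 passed 2-fold, against 2.37% of all measured genes. Their median was -0.19, with 4 below 0, where 49.5% of all measured genes were. Neither array detected Apela, the second ligand of the receptor, or the peptidase Mme, which can cleave apelin, well above background. The G protein subunits that the receptor can use were split, with Gnai2 at -0.39 and Gnai3 at 0.38. Cpe, a carboxypeptidase of secretory granules, lay at -0.46, and the beta-arrestins Arrb2 and Arrb1 at -0.23 and -0.15. The proprotein convertase Furin lay at 0.10. The differences of Apln, which was picked for its low value, and Aplnr were larger in size than any of these 6.

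The promoters of Apln and Kdr are shown because these are the members furthest below 0 in the apelin and VEGF pairs for which RefSeq sequence was at hand. They run from 250 bases before to 50 after the start (RefSeq, GRCm38.p6). Capitals mark the letters TGGGAA, the core that the Notch effector RBPJ binds, the letters ACGTG, the core of hypoxia response elements, and the letters CCGGAA, a core of ETS factors, each on either strand.
Apln promoter, chrX:48034804-48035103, minus strand: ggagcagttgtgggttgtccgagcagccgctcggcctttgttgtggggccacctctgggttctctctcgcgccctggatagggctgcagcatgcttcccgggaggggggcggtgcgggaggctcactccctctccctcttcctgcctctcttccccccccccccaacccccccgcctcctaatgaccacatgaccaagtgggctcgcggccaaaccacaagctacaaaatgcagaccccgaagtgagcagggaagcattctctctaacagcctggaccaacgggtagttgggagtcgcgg
Kdr promoter, chr5:75978406-75978705, minus strand: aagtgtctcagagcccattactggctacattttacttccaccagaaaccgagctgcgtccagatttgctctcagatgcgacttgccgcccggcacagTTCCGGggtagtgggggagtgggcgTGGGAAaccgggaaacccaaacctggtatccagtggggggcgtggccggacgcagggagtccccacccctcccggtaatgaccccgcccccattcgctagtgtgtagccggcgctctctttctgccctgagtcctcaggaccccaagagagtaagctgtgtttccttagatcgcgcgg
The Apln window holds none of the 3 motifs. The Kdr window holds TGGGAA at -128 and, on the other strand, CCGGAA at -153, and the 2 do not overlap. Of 32851 promoter windows of this length, 25.6% hold TGGGAA, 19.6% ACGTG and 14.9% CCGGAA. Windows were found for 7 of the 10 genes, 8 windows in all, and 4 of them hold TGGGAA, 1 ACGTG and 1 CCGGAA. These matches are descriptions of letters in a window.

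The VEGF branch comprises the ligand Vegfa and the receptors Kdr and Flt1. The ligand lay near 0. One Vegfa probe, at position 1193, had signals of 965 in N2ICD muscle and 904 in control muscle. The other, at position 3026, had 3890 in N2ICD muscle and 3079 in control muscle as the mean of its 2 spots. The log2 differences were -0.08 and 0.16, a gene value of 0.04, and 35.5% of 2575 genes with 2 measured probes showed a gap between probes at least as wide. The probes lie on chromosome 17, at 46162376 to 46162435 and 46154387 to 46154446 (mm9, minus strand).

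Kdr was lower in N2ICD muscle at both of its probes. The probe at position 5377 (chromosome 5, 76329309 to 76329368, mm9, minus strand) was printed 10 times. Its spots ran from 939 to 999 in N2ICD muscle and from 971 to 1136 in control muscle. The 2 ranges overlap slightly before scaling, yet each of the 10 spot differences was below 0, from -0.40 to -0.18, with a mean of -0.33 and an SD of 0.07. This is the best measured of the 14 probes, and its SD is that of spots on 1 pair of arrays. The probe at position 4291 (chromosome 5, 76330395 to 76330454) had 1 spot, with a signal of 4961 in N2ICD muscle and 7263 in control muscle. Its difference was -0.72, so the size of the Kdr difference depended on the probe, from 1.25-fold to 1.65-fold lower. A gap this wide, 0.40, was reached by 19.3% of genes with 2 measured probes. Which transcripts each probe reads was not tested.

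Flt1, unlike Kdr, lay above 0. The probe at position 6201 of the RefSeq transcript (chromosome 5, 148373791 to 148373850, mm9, minus strand) had signals of 5359 in N2ICD muscle and 4507 in control muscle, a difference of 0.08. A second probe, placed on an Ensembl transcript (chromosome 5, 148446872 to 148446931), had 877 in N2ICD muscle and 576 in control muscle, a difference of 0.44. The third, placed on another transcript record at position 1881 (chromosome 5, 148465976 to 148466035), had 43.4 in N2ICD muscle and 24.1 in control muscle, where it was not well above background. Set against the lowest value well above background there, it gave a bound of 1.51-fold higher in N2ICD muscle, 0.60 on the log2 scale. The scanner's estimates give its log2 difference an error of 0.43, so the bound is not a strict minimum. The gene value of 0.26 rests on the first and second probes. The probe furthest towards the 3′ end of the gene lay closest to 0, and both probes nearer its start lay higher. Of these, the third probe rests on a dim spot. Flt1 makes a full-length receptor and shorter soluble forms, and the files do not say which of these each probe reads.

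Among 7 other VEGF ligands and receptors, 6 were measured, with a median of 0.05. Of these, 0 passed 2-fold, where 2.37% of all measured genes did. The ligands Vegfb, Vegfd, Pgf and Vegfc lay at 0.14, 0.11, 0.08 and 0.01. The neuropilins, co-receptors that present VEGF to Kdr, lay lower. Nrp1 had signals of 179 in N2ICD muscle and 223 in control muscle, a difference of -0.49, and Nrp2 lay at -0.54 with both of its probes below 0. The lymphatic receptor Flt4 did not stand well above background in either muscle. So the ligands lay near 0 while the gene values of Kdr, Nrp1 and Nrp2 lay between -0.54 and -0.49. The Kdr probe printed 10 times lay higher, at -0.33. The receptor Flt1 went the other way, with a gene value of 0.26.

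Of 20 genes that act below the VEGF receptors, 16 were measured, with a median of -0.03. Below 0 were 10 of them, where 49.5% of all measured genes were, and 0 passed 2-fold, where 2.37% did. The phospholipase Plcg2 lay at -0.49, the adaptor Nck2 at -0.40 (its probes at -0.80 and -0.01), and Plcg1 at -0.33. Rcan1, a calcineurin inhibitor that VEGF induces, lay at 0.34. The endothelial nitric oxide synthase Nos3 lay at -0.01.

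**Figure D3:**
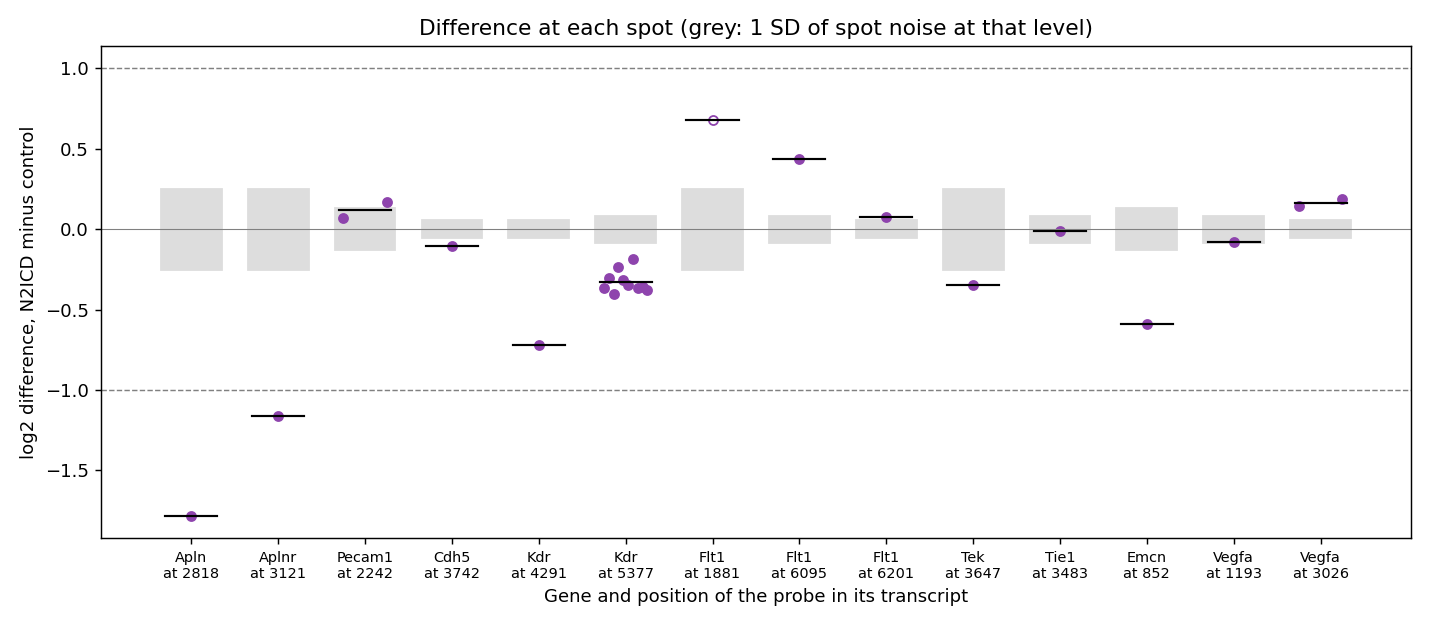
The log2 difference, N2ICD minus control, at each spot of the 14 probes, with the mean as a black line. Grey boxes show 1 SD of spot noise at the level of the probe and dashed lines 2-fold, and the open circle is the Flt1 probe that was not well above background in control. The 10 Kdr spots at position 5377 all lie between -0.40 and -0.18.

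Tek and Tie1 are paralogous receptor kinases, and both are made mainly by endothelial cells. Their probes are shown because they read matching stretches of the 2 transcripts, at position 3647 for Tek and 3483 for Tie1. Capitals mark the bases that are the same in both, 39 of 57 compared without gaps, with the Tek sequence moved by 3 bases.
Tek probe, chr4:94540624-94540683, plus strand, mm9: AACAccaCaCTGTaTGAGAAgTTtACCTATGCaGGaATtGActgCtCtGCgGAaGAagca
Tie1 probe, chr4:118144132-118144191, minus strand, mm9: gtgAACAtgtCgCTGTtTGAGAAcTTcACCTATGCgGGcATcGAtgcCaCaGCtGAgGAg
Tek had a signal of 127 in N2ICD muscle and 143 in control muscle, a difference of -0.34. That is 1.37 times the SD of spot noise at its level, with an error of 0.22 from the scanner's estimates. Before scaling, the scanner's errors of 13.8 and 15.2 make the 2 signals overlap. Tie1 had 606 in N2ICD muscle and 541 in control muscle, a difference of -0.01 after scaling. Whether either probe also reads the other transcript was not tested.

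The angiopoietin and Tie list held a gene past 2-fold on the higher side. Of 8 listed genes 7 were measured, with a median of 0.35, 5 above 0 and 2 below. Over all measured genes, 49.5% were below 0 and 1.46% at least 2-fold higher. Angpt1, the ligand that activates Tek, had a signal of 274 in N2ICD muscle and 116 in control muscle, and was 2.09-fold higher, a log2 difference of 1.06. Angpt2, which can oppose it, had 76.6 in N2ICD muscle and 48.3 in control muscle, a difference of 0.49. The transcription factor Foxo1, which acts below Tek and also in muscle wasting, lay at 0.39 and Angptl1 at 0.35. Angpt4 was well above background in N2ICD muscle alone, with a bound of 1.63-fold higher. Angpt1 and Angpt2 were each measured by 1 probe. With normexp correction the median of the list was 0.12.

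The surface proteins of the endothelial layer differed among themselves. Pecam1, an adhesion molecule of endothelial junctions and leukocytes, had 340 and 371 at its 2 spots in N2ICD muscle, against 269 and 313 in control muscle. Its differences were 0.07 and 0.17 after scaling. Cdh5, the cadherin of endothelial junctions, had 1461 in N2ICD muscle and 1395 in control muscle, a difference of -0.10. Both general endothelial markers therefore lay near the typical gene. Emcn, a sialomucin of capillaries and veins, had 143 in N2ICD muscle and 191 in control muscle, a difference of -0.59 that is 4.54 times the SD of spot noise at its level, with an error of 0.22 from the scanner's estimates. The Pecam1 probe lies on chromosome 11, 106540864 to 106540923, the Cdh5 probe on chromosome 8, 106668159 to 106668218, and the Emcn probe on chromosome 3, 137086389 to 137086448 (mm9).

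The further endothelial markers lay close to 0. Of 20 pan-endothelial markers 19 were measured, and the median was -0.09. Of these, 12 were below 0, where 49.5% of all measured genes were, and 0 passed 2-fold, where 2.37% did. The range ran from -0.34 for the adhesion molecule Esam to 0.18 for Palmd, with Icam2 at -0.33, Mmrn2 at -0.30 and Vwf, the clotting factor carrier, at -0.29. Clec14a was well above background in control muscle alone, with a bound of 1.25-fold. The gene values of Apln, which was picked for its low value, Aplnr, Emcn and Kdr were all below the lowest of these 19 markers. The Kdr probe printed 10 times, at -0.33, was not.

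Lists by vessel type gave medians near 0. Of 11 capillary genes, all measured, the median was -0.02. One of them, Rgcc, a cell cycle regulator, was 2.88-fold higher, with signals of 13759 in N2ICD muscle and 4238 in control muscle, while Tcf15 lay at 0.52, Fabp4 at 0.37 and the caveola protein Cav1 at -0.54. Of 11 arterial genes, all measured, the median was -0.05 and 0 passed 2-fold, where 2.37% of all measured genes did. The Notch target Hey1 lay at 0.54, the chemokine Cxcl12 at -0.52, the gap junction protein Gja5 at -0.40 and the Notch ligand Dll4 at -0.34. Of 15 venous and lymphatic genes 8 were measured, with a median of -0.13. Ephb4 lay at 0.32, though its probes gave -0.01 and 0.65, while Vcam1 lay at -0.31, Vwf at -0.29 and Nr2f2 at -0.23.

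Tip cells lead growing vessels, and Apln is on the list of their genes. Without Apln 8 were measured, of which 7 were below 0, where 49.5% of all genes were, with a median of -0.34 and a range from -0.40 to 0.49. The basement membrane protein Nid2 lay at -0.40, the peptide adrenomedullin (Adm) at -0.36, Pdgfb, which recruits pericytes, at -0.35, and Dll4 at -0.34. Angpt2 was the one above 0. Of the 8, 0 passed 2-fold, where 2.37% of all measured genes did in either direction. Esm1, Dll4 and Angpt2 were dim, with a spot noise SD of 0.25. Among the 7 below 0, Esm1 lay at -0.33, and Unc5b was near 0 at -0.02.

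Of 18 endothelial transcription factors 16 were measured, with a median of -0.04, and 0 passed 2-fold, where 2.37% of all measured genes did. Lyl1 had signals of 187 in N2ICD muscle and 290 in control muscle, a difference of -0.81. Its relative Tal1 lay at -0.50 and Ets1 at -0.52, while Mef2c, which muscle fibres make as well, lay at 0.67. Erg, a defining factor of endothelial cells, did not stand well above background in either muscle, whereas Fli1, Sox7, Sox17 and Sox18 were measured and lay between -0.09 and 0.11.

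**Figure D4:**
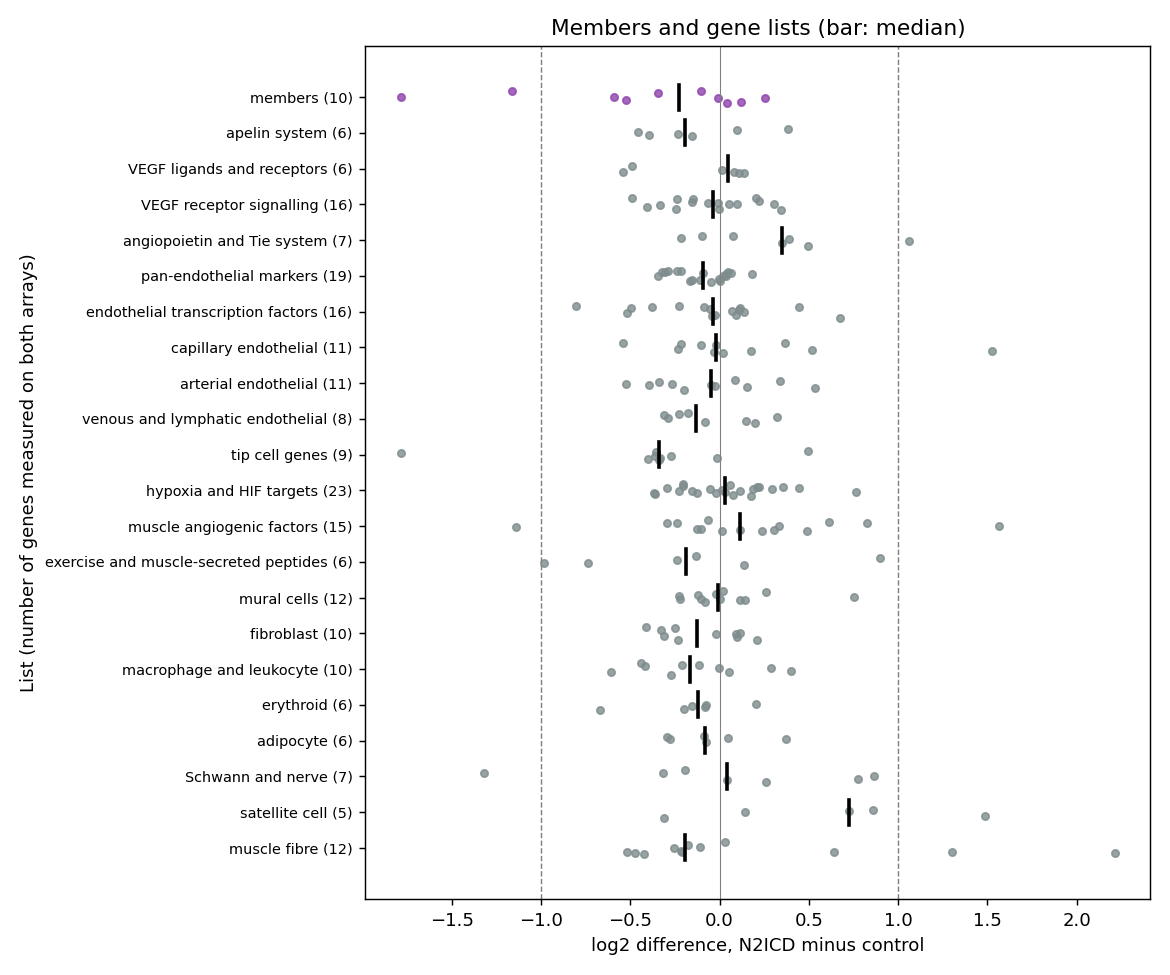
The log2 difference, N2ICD minus control, of every gene measured on both arrays in the 10 genes (purple) and in 21 further lists (grey), with black bars at the medians and dashed lines at 2-fold. The tip cell list is drawn with Apln. The medians run from -0.34 for tip cell genes to 0.73 for satellite cell genes (0.02 with no filter on dim probes), and Apln and Aplnr lie below every pan-endothelial marker.

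Apln, Vegfa and Adm are known targets of hypoxia-inducible factors. Of 25 genes of that system 23 were measured, with a median of 0.03 and 13 above 0. The other 10 were below 0, where 49.5% of all measured genes were, and 0 passed 2-fold, where 2.37% did. The prolyl hydroxylase Egln3 was furthest, with signals of 484 in N2ICD muscle and 253 in control muscle, a difference of 0.76. P4ha1 lay at 0.44, Ldha at -0.37 and Adm at -0.36. The factors themselves, Hif1a and Epas1, lay at -0.16 and -0.06.

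Factors by which muscle acts on vessels had a median of 0.12 over 15 of 17 genes, with 1 past 2-fold on each side. The matrix protein Ccn1 had signals of 2163 in N2ICD muscle and 650 in control muscle and was 2.96-fold higher. The matrix protease Mmp9 had 97.3 in N2ICD muscle and 190 in control muscle and was 2.20-fold lower. The nuclear receptor Esrrg lay at 0.83 and the coactivator Ppargc1a, which induces Vegfa in muscle, at 0.62. Vegfa itself, at 0.04, was below both.

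Other peptides that muscle releases gave a median of -0.19 over 6 of 12 genes. Of these, 0 passed 2-fold, where 2.37% of all measured genes did. The bone and muscle peptide Ostn had signals of 105 in N2ICD muscle and 184 in control muscle, a difference of -0.98. Il15 lay at -0.74, Sparc at -0.24, and myostatin (Mstn), which limits muscle growth, at 0.90. Apln, which was picked for its low value, lay below all of them, and nothing is read from that order.

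Markers of other cells in the muscle gave medians from -0.19 to 0.73. Mural cells, which wrap vessels, had -0.01 over 12 of 12 genes with 0 past 2-fold, Cspg4 at 0.75, Myh11 at 0.26, Notch3 at -0.23 and Acta2 at -0.22. Fibroblast genes had -0.13 over 10 of 10, with 4 above 0 and 6 below 0, where 49.5% of all measured genes were. The largest differences were Col1a1 at -0.41, Col3a1 at -0.33, Col1a2 at -0.31 and Smoc2 at -0.25. Macrophage and leukocyte genes had -0.16 over 10 of 12, with Lyz2 at 0.40, Tyrobp at -0.42, Cd68 at -0.44 and the growth factor receptor Csf1r at -0.61, while Ptprc and Cd163 were undetected in both muscles. No measured gene of these cell types passed 2-fold, where 2.37% of all measured genes did in either direction. Their medians lay above that of the tip cell genes, which rests on 8 genes without Apln.

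Erythroid genes had a median of -0.12 over 6 of 6, with Slc4a1 at -0.67, and adipocyte genes, which matter because fat cells also make apelin, had -0.08 over 6 of 7, with Cidec at 0.37, Plin1 at -0.30 and Pparg at -0.28. Schwann and nerve genes had 0.04 over 7 of 8. Among them the receptor Ngfr was 2.49-fold lower, Ncmap lay at 0.86, S100b at 0.78 and Sox10 at -0.32. Satellite cell genes had 0.73 over 5 of 8, with Itga7, which fibres make too, 2.81-fold higher, Sdc4 at 0.86, Cdh15 at 0.73 and Vcam1 at -0.31. Pax7 of that list lay at 0.14, within its spot noise SD of 0.25, and Myf5 and Calcr were undetected in both muscles. The satellite cell median was 0.52 with normexp correction and 0.02 with no filter on dim probes. Muscle fibre genes had -0.19 over 12 of 12, with Myh7 4.64-fold higher, Myh2 2.46-fold higher, Mb at 0.64 and Ckm at -0.52, and with quantile normalization their median was 0.00. The part of these cell types in the values of Apln and Aplnr was not tested.

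The scale decides the sign of most of these small differences. On a scale set by 7 E1A spike-in probes, all genes stood 0.48 higher, so that all 21 list medians were above 0, the tip cell list with Apln included at 0.14. Apln, Aplnr, Emcn and Kdr remained below 0, at -1.31, -0.68, -0.11 and -0.05, whereas Tek, Cdh5 and Tie1 were above 0, at 0.13, 0.37 and 0.47. Scaling to the median instead moved all genes up by 0.07, enough to turn the medians of the capillary, arterial, transcription factor, VEGF receptor signalling and mural cell lists above 0. Every direction given for a gene or a list is therefore relative to the typical gene.

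**Figure D5:**
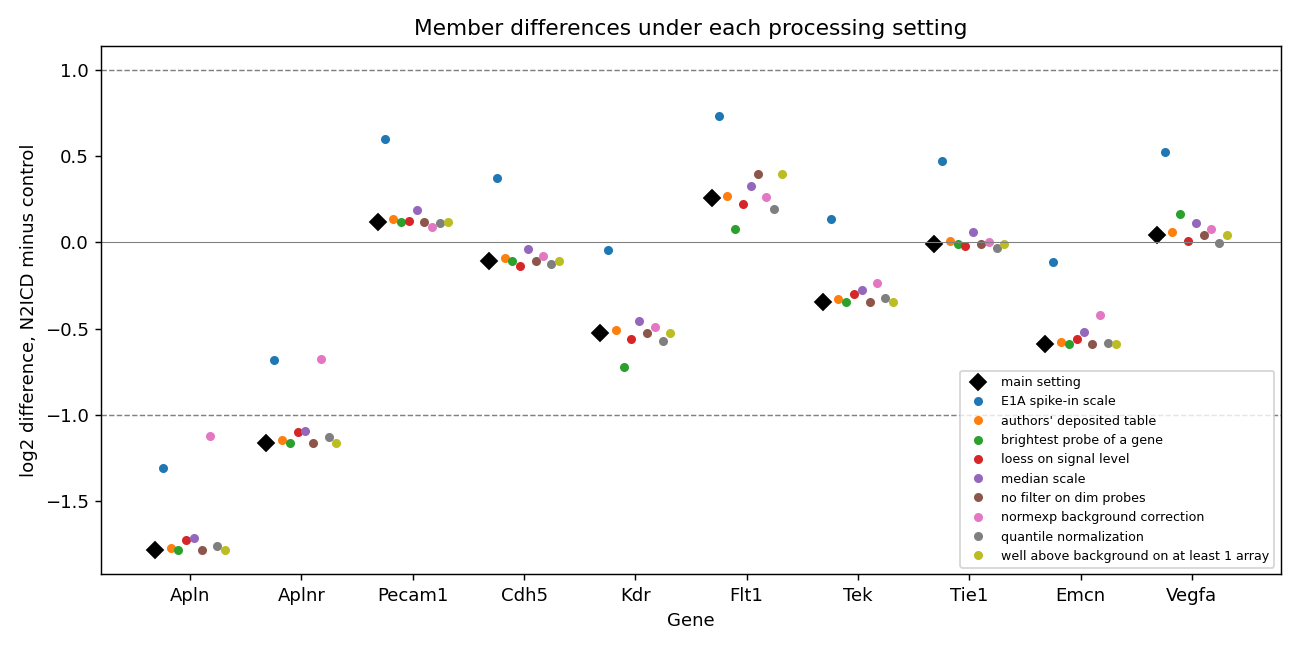
The log2 difference, N2ICD minus control, of each of the 10 genes in the main setting (black diamonds) and 9 alternatives (coloured points), with dashed lines at 2-fold. Apln stays below the 2-fold line in each setting, from -1.78 to -1.12, and Aplnr crosses it with normexp correction and on the spike-in scale.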

How the data were processed

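Cy3-labelled muscle RNA of each genotype, N2ICD and control, was hybridised to 1 array, per the labels. Per the file headers, the deposited intensity of each spot is the processed signal of Agilent's Feature Extraction, version 10.10.1.1, with background subtracted and no scaling between arrays, and probes are placed on mm9. A further table deposited by the authors has, for each probe, a fold (ratio) without sign, an intensity and a log2 value. The steps behind that table are not given in the sources used here.

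From the scanner files, the log2 of the 75th percentile over the 59305 gene spots of an array was subtracted from its log2 processed signals. After 215 outlier spots were left out, spots of a probe were averaged, which gave 55672 probes. A gene's value is the mean over its probes that were well above background on both arrays in most spots. A gene above background on 1 array is given as a bound, against the higher of the dim probe's value and the lowest value well above background there. Accessions were matched to RefSeq for 31161 spots, and the file's name was used for 5594. No p-values were computed. Members and lists were chosen with earlier results of these data known.

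Named genes were all members, up to 4 genes per list with the largest absolute difference, genes past 2-fold, pathway partners, and the 3 nearest genes on each side of Apln. Further genes named as a range or as undetected were picked with their values in view. So were Furin, Arrb1, Nos3, Esm1, Unc5b, Fli1, Sox7, Sox17, Sox18, Hif1a, Epas1 and Pax7. As alternatives served normexp (offset 50), median, spike-in, quantile and loess (span 0.4) scaling, looser filters, the brightest probe, the authors' table and 1.5-fold. Steps were tested on simulated data. The work used R 4.3.3 with limma 3.58.1, and Python 3.11.15 with pandas 2.3.3, numpy 2.4.6, matplotlib 3.10.9 and statsmodels 0.14.6.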

Additional observations from a re-analysis of the deposited data

How the results depend on the processing

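The Apln difference of -1.78 was -1.12 after normexp background correction, whose offset pulls dim signals together, and -1.31 on the spike-in scale. It moved by less than the spot noise in the other 7 alternatives. The looser filters and the brightest-probe setting could not change it, since Apln has 1 probe, well above background on both arrays. The count of the 10 genes at least 2-fold lower, 2, was 1 with normexp and on the spike-in scale. The median of the 8 endothelial genes, -0.22, was 0.25 on the spike-in scale. Otherwise it lay between -0.22 and -0.10, the end at -0.10 without Aplnr, a choice made after seeing the data. The mean in place of the median was -0.30. The count of 182 genes higher by 2-fold or more, with 115 lower, became 77 and 41 with normexp, 830 and 24 on the spike-in scale, 334 and 307 with probes above background on at least 1 array, 718 and 809 with no filter, and 647 and 595 at 1.5-fold. Higher genes were 61.3% of those past 2-fold, against 97.2% on the spike-in scale, 52.1% with the looser filter and 47.0% with none. No paired analysis was possible because each group holds 1 array. Signal near background limits Apln and Aplnr, and each has 1 spot per array.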

Other observations

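The genes whose log2 difference lay nearest to that of Apln over the 2 arrays were taken on either side of it. Below it were Pak1, Il4i1 and Frzb, at gaps of 0.13, 0.13 and 0.28. Above it were Cntfr, a receptor subunit for ciliary neurotrophic factor, Mia and Arl9, at gaps of 0.03, 0.08 and 0.12. Cntfr, from 2 probes, had a signal of 62.6 in N2ICD muscle and 187 in control muscle. Pak1 had 70.4 in N2ICD muscle and 235 in control muscle. With 2 arrays this likeness is a similar size of difference and nothing more.

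Probes not named for a member within 100 kb of the member probes were counted as neighbours. Some of them are named only by coordinates or by the probe, and Kdr and Emcn had no neighbour. Of 47 such probes, 23 had a measured value in both muscles, and these differences ran from -0.48 to 0.50, so that 0 passed 2-fold. Among all measured genes 2.37% did, and nothing is read from the count of 0. A further 5 were well above background in N2ICD muscle alone and 2 in control muscle alone, and 0 of these bounds reached 2-fold.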
